A study of Mus musculus with 5 samples.

Results

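The beta cells of islets from a homozygous knockout of the glucagon receptor gene Gcgr were described across genes and set against the beta cells of heterozygous islets. The cells were all those that the authors' deposited annotation classed as beta cells by Ins1: 461 of the 2844 cells of the homozygous library (16.2%, exact binomial 95% interval 14.9 to 17.6) and 690 of the 1334 cells of the heterozygous library (51.7%, 49.0 to 54.4). They belong to a mouse series of 6645 islet and tumor cells, of which 4178 are islet cells. The study profiled islets homozygous for the Gcgr knockout (1 library), islets heterozygous for it (1 library) and tumors of Gcgr knockout mice, which are not used here, with 10x Chromium 3′ v2 single-cell RNA-seq. The islet mice were untreated and kept on standard chow under a 12 h light and 12 h dark cycle. All islets thus carried at least 1 knockout allele, no wild-type islets were analysed here, and the labels name no age, strain or number of mice for either library.

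Beta cells take up glucose, metabolise it, close ATP-sensitive potassium channels and release insulin as calcium enters. Insulin is made from proinsulin, which is folded in the endoplasmic reticulum, cut by prohormone convertases and packed in granules together with granins and amylin. Mouse beta cells express both insulin genes, Ins1 and Ins2, and mature cells also make urocortin 3. Glucagon of neighbouring alpha cells reaches the beta cell through its glucagon and GLP-1 receptors, and in mice without the glucagon receptor alpha cells are known to multiply.

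Levels are UMIs (unique molecular identifiers, counted once per captured transcript) of a gene per 1000000 UMIs of the pooled cells, written CPM. The beta cells held 5616890 UMIs in the homozygous and 17360467 in the heterozygous library, with medians of 10854 and 26414.5 per cell, and a median of 1898 and 3333.5 genes per cell. The median share of mitochondrial UMIs was 0.841% in homozygous and 0.565% in heterozygous beta cells. Free RNA was read from endothelial cells, with medians of 2061 UMIs in the 214 homozygous and 3579 in the 197 heterozygous cells. Their Ins2 level was 7.71% of the level of the whole library in homozygous and 10.3% in heterozygous islets, and Gcg in beta cells was 8.59% and 9.74% of its library level. With 1 library per genotype no difference has a replicate check and none was tested. All intervals are exact, cover 95% and count sampling of UMIs or cells only. The libraries shared 0 cell names, and the tables hold no cell barcodes.

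The deposited class was checked against 5 beta cell markers. Ins1 had 194240 CPM in homozygous and 251841 CPM in heterozygous beta cells, against 1761 and 11316 CPM in endothelial cells. Ins2, the second insulin gene, had 379044 and 403154 CPM. Iapp, which encodes amylin, had 48500 and 48847 CPM. Pdx1, the transcription factor of beta and delta cells, had 10.9 CPM (61 UMIs) and 15.8 CPM (275 UMIs), and no UMI in endothelial cells of either library. Ucn3, which encodes urocortin 3, had 223 and 410 CPM. All 5 were found in both libraries. The genes that set homozygous beta cells apart from every other named type of their library by the widest margin were Ins1 (70.9 times the next type), Ins2 (48.3 times), Ucn3 (40.8 times), the islet glucose-6-phosphatase gene G6pc2 (27.4 times), the glucose transporter gene Slc2a2 (23.7 times), the protease gene Prss53 (23.2 times), T2 (14.2 times) and the prolactin receptor gene Prlr (12.3 times). The class was made from these cells, so these margins describe it and test nothing. The 2 beta cells in the authors' cluster 2.6 stood against their class by insulin, with Ins2 at 7970 CPM and Ppy at 474022 CPM. Pancreatic polypeptide (PP) cells had Ins2 at a close 7853 CPM. By Iapp the 2 cells stood with their class, at 83298 and 77080 CPM, against 2227 CPM in PP cells. They were not alone in low insulin, since a beta cell of cluster 2.7 had Ins2 at 5754 CPM and Ppy at 357037 CPM.

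The targeted gene had no UMI among homozygous beta cells. Gcgr (chromosome 11, 120529185 to 120538989, GRCm38) had 0 of 5616890 UMIs, which allows up to 0.534 CPM, against 125 UMIs or 7.20 CPM (5.99 to 8.58) in heterozygous beta cells. The homozygous endothelial cells also had 0 UMIs, and the heterozygous endothelial cells had 2.33 CPM.

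The start regions of 5 genes that carry the results are shown first, since Ins1, Slc2a2, Ucn3 and Trpm5 were lower and Ppy higher in homozygous beta cells. Each is 250 bases before and 50 after the RefSeq start site (GRCm38.p6), 5′ to 3′ on the gene's strand. Capitals mark CATCTG, the E box of insulin promoters, and TAAT, the core of the A box bound by homeodomain factors such as Pdx1, both searched on both strands (as CAGATG and ATTA on the other).
Ins1, chr19:52264047-52264346, + strand: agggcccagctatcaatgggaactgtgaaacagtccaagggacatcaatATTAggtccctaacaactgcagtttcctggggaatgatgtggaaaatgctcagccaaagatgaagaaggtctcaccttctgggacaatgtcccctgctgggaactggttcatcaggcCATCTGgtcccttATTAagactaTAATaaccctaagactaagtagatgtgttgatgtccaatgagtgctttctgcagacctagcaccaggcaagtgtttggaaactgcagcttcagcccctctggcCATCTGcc
Slc2a2, chr3:28697653-28697952, + strand: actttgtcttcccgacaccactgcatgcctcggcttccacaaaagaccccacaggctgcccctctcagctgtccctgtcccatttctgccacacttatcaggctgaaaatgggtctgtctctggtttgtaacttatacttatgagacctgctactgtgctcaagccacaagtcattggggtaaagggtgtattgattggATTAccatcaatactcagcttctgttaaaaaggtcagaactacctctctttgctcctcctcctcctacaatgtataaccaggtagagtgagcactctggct
Ucn3, chr13:3945300-3945599, - strand: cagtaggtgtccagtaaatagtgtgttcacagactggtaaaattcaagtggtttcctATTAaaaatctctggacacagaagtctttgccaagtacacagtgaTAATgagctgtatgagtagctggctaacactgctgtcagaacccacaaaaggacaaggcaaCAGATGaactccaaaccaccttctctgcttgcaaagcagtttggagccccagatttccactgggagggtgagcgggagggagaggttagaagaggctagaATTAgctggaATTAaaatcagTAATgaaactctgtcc
Trpm5, chr7:143094593-143094892, - strand: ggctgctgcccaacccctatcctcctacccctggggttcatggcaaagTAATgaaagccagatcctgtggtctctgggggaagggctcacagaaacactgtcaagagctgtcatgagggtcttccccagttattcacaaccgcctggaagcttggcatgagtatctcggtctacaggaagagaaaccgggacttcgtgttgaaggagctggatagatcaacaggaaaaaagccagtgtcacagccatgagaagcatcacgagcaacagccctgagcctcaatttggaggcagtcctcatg
Ppy, chr11:102101270-102101569, - strand: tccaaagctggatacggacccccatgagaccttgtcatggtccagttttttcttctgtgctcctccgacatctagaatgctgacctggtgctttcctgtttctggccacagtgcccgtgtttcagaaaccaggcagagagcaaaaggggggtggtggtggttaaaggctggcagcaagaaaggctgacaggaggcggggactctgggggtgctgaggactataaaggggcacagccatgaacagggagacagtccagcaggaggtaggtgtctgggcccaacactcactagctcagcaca

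Among these windows CATCTG occurred 2 times in Ins1 and 1 time in Ucn3, and TAAT 3 times in Ins1, 5 times in Ucn3 and 1 time each in Slc2a2 and Trpm5. The Ppy window held neither. Of 32851 promoter windows of the same length in the RefSeq table, 17.2% held CATCTG, 58.0% held TAAT and 6.86% held 5 or more TAAT matches. These are matches of letters and not sites of binding.

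Insulin transcripts made up a somewhat smaller part of the homozygous beta cell profile. The summed UMIs of Ins1, Ins2 and Iapp were 62.2% of all UMIs in homozygous and 70.4% in heterozygous beta cells, while all 8 islet hormone transcripts together took 70.7% and 71.1%. Ins1 stood at 0.771 times its heterozygous level (0.770 to 0.773), Ins2 at 0.940 times (0.939 to 0.942) and Iapp at 0.993 times (0.989 to 0.997). The level of Ins1 over that of Ins2 was 0.512 in homozygous and 0.625 in heterozygous beta cells; the 2 genes are near-identical copies, and the split of reads between them is uncertain. The ratio of Ins2 passed 1 (1.01) without the cells in which other hormones took more than 20% of UMIs. Those were 61 homozygous and 0 heterozygous cells. They were picked by their hormone share, so a higher insulin ratio follows from the choice. In the median cell Ins1 and Ins2 together had 614875 CPM in homozygous beta cells (lowest 7057, highest 740161), against 660165 CPM in heterozygous ones (lowest 157403, highest 817274). The medians lay close together, and the homozygous cells reached much further down: the 5th percentile was 151459 CPM in homozygous and 586875 CPM in heterozygous beta cells.

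Ppy, which encodes pancreatic polypeptide, had the highest ratio among the genes whose beta cell level was at least 3 times that of endothelial cells. It had 47355 CPM in homozygous and 855 CPM in heterozygous beta cells, a ratio of 55.4 (54.45 to 56.3), and of 24.2 without the cells in which other hormones took more than 20% of UMIs. Ppy and Pyy count among those other hormones, so leaving out such cells lowers both ratios by construction. Endothelial cells had 10586 and 631 CPM, so the background of the libraries differed by 16.8 times (15.4 to 18.4). Pyy, which encodes the related peptide YY and lies beside Ppy on chromosome 11, had 14894 and 651 CPM (ratio 22.9, and 14.4 without those cells), and endothelial cells 5506 and 436 CPM. The pooled level lay well above that of the median homozygous beta cell, which had Ppy at 16252 CPM (lowest 6940, highest 476554), against 766 CPM in the median heterozygous cell (lowest 0, highest 14291). Of the 461 homozygous beta cells, 122 (26.5%, 22.5 to 30.7) had more Ppy than any of the 214 endothelial cells of their library, in which the highest value was 28233 CPM. In the heterozygous library 12 of 690 (1.74%, 0.902 to 3.02) passed the highest endothelial cell, which had 2483 CPM. Endothelial cells are shallower, which widens the spread of their values.

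**Figure D1:**
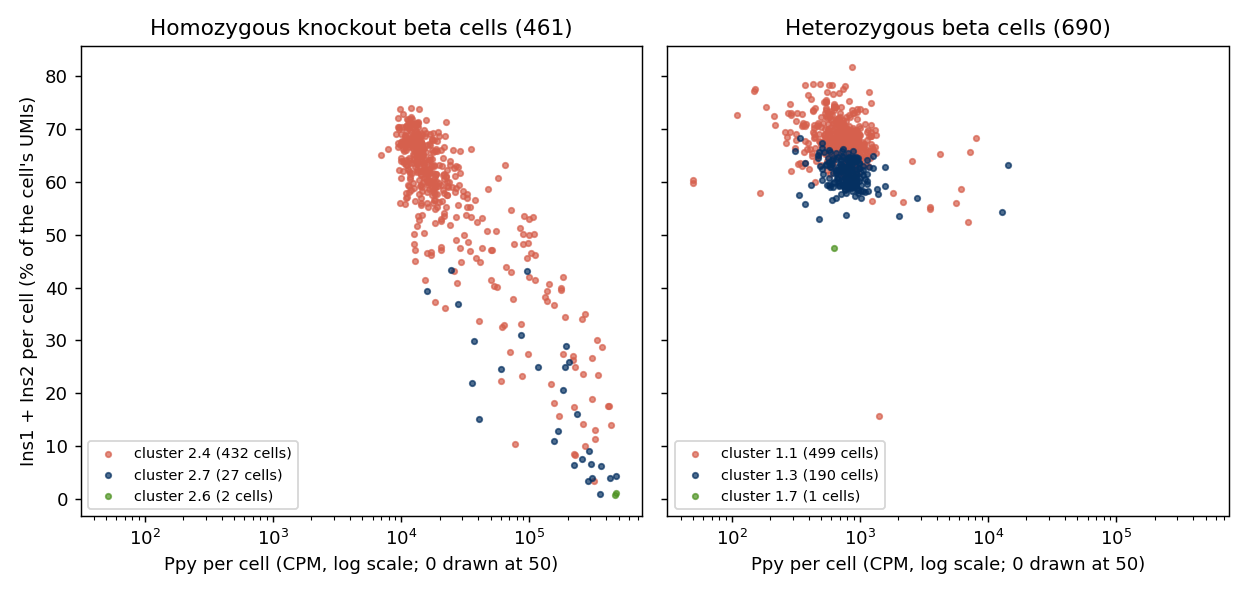
Summed insulin transcripts (percent of the cell's UMIs) against Ppy (CPM, log scale) in each beta cell, homozygous knockout on the left and heterozygous on the right, coloured by the authors' cluster. Most homozygous cells sit near the median of 16252 CPM Ppy with insulin close to that of heterozygous cells, and a tail of cells runs to higher Ppy and lower insulin, with many cells of cluster 2.7 and both of cluster 2.6 at its end.

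For description the homozygous beta cells were divided by their own Ppy level, into 61 cells with 100000 CPM or more, 56 cells with 30000 to 100000 CPM and 344 cells below; 20 cells lay within 20% of the upper limit, so the classes are ranges of a continuous measure and not types. All 690 heterozygous beta cells were below 30000 CPM. The authors' cluster 2.7 (27 beta cells) held 18 of the 61 cells with high Ppy, cluster 2.4 (432 beta cells) held 41 and cluster 2.6 held 2. In the cells with high Ppy, Ins1 had 61968 CPM, Ins2 189678 CPM and Ppy 249135 CPM when pooled, against 220078, 417415 and 14585 CPM in the cells with low Ppy. Their median cell had Ins2 at 164239 CPM, Ppy at 224629 CPM, Gcg at 18288 CPM and Sst at 3543 CPM. The medians of endothelial cells were 5142, 10702, 14075 and 2176 CPM for the same genes. High Ppy was set by the limit, and Ins2 by the beta cell class, so these values describe the cells and test nothing. PP cells of the same library had Ins2 at 7853 CPM and Ppy at 542049 CPM.

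Several granule genes were higher in the beta cells with high Ppy than in either the remaining beta cells or the PP cells. Chga, which encodes chromogranin A, had 16661 CPM in beta cells with high Ppy and 11804 CPM in those between, against 4450 CPM in beta cells with low Ppy, 2139 CPM in PP cells, 4065 CPM in delta cells and 4436 CPM in alpha cells. The median cell with high Ppy had Chga at 16589 CPM, above the highest value among the 151 PP cells (12037 CPM). Iapp had 71524 CPM in beta cells with high Ppy, against 43953 CPM in those with low Ppy and 2227 CPM in PP cells. Delta cells had 55411 CPM of Iapp, more than the beta cells with low Ppy. Chgb, chromogranin B, had 1899 CPM in beta cells with high Ppy, against 412 CPM in those with low Ppy and 655 CPM in PP cells, but delta cells had more (2300 CPM). Among 1143 genes with 50 CPM or more in beta cells with high Ppy, 4 had at least 2 times the level of each of the low-Ppy beta, PP, alpha, delta and endothelial cells: Chga, Lrpprc, Hist1h4h and Pcp4, chosen after their values were seen. Lrpprc rested on 43 UMIs, and Hist1h4h belongs to a family of near-identical histone genes. Among beta cell genes the direction was mixed. Pcsk1, like Iapp, was higher in beta cells with high Ppy, with 87.9 CPM against 64.0 CPM in those with low Ppy, while others were lower. Levels are shares of all UMIs, and the hormone genes together took a smaller share in the cells with high Ppy. A smaller hormone share raises the level of every other gene, and Pcsk1 was not compared between these classes without the hormones. The Pcsk1 level rested on 59 UMIs in the cells with high Ppy, and those of Slc2a2 and Trpm5 below on fewer. Ucn3 had 76.0 CPM in beta cells with high Ppy, against 251 CPM in those with low Ppy; Slc2a2 had 13.4 and 80.3 CPM, G6pc2 119 and 570 CPM and Trpm5 2.98 and 40.5 CPM.

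The depth of these classes was compared because cells with transcripts of 2 types can be doublets. The median UMI count was 8436 in beta cells with high Ppy, against 11360 in those with low Ppy and 12182 in PP cells. Scrublet called 0 of the 461 homozygous and 8 of the 690 heterozygous beta cells doublets, and 1 of 2844 cells in the homozygous library. Leaving out the called cells removed no homozygous beta cell, so it could not show the part of doublets among them. That part was not tested.

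**Figure D2:**
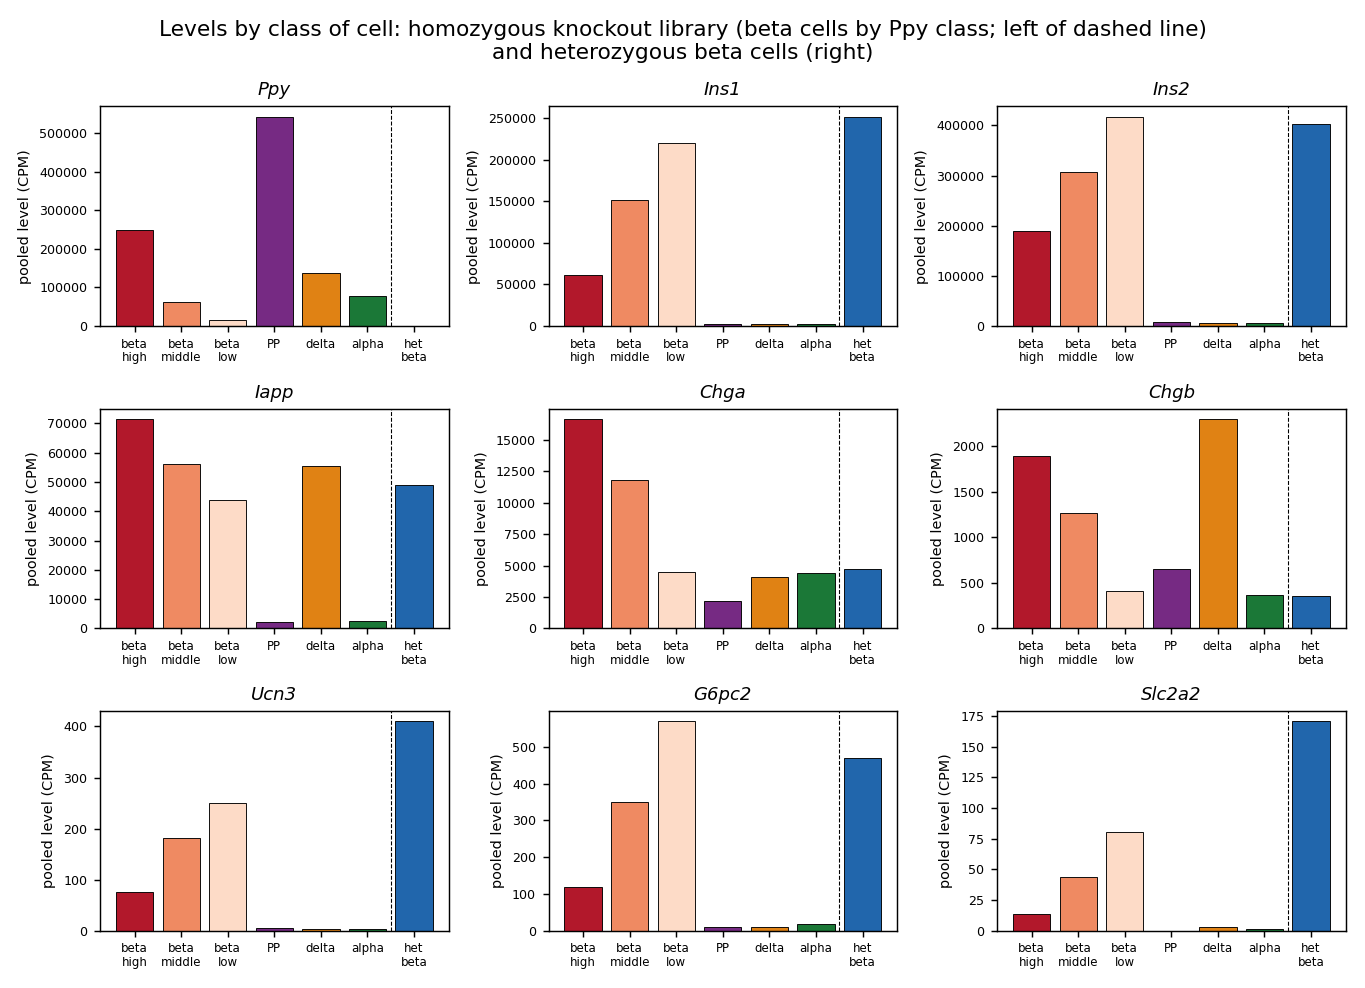
Pooled levels (CPM, linear axes from 0) of 9 genes in homozygous beta cells with high, middle and low Ppy, in PP, delta and alpha cells of the same library, and, right of the dashed line, in heterozygous beta cells. Chga is highest in the beta cells with high Ppy (16661 CPM), while Ucn3, G6pc2 and Slc2a2 step down from low to high Ppy, and Slc2a2 and Ucn3 stay below the heterozygous bar even where Ppy is low.

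Transcripts of the other islet hormones were also higher in homozygous beta cells, and most lay near the background. Gcg, the alpha cell hormone gene, had 18842 CPM in homozygous and 5273 CPM in heterozygous beta cells (ratio 3.57), against 14343 and 4104 CPM in endothelial cells (ratio 3.50). Sst, the delta cell hormone gene, had 4073 and 684 CPM (ratio 5.95), against 2164 and 491 CPM in endothelial cells (ratio 4.40). The alpha cell gene Ttr and the delta cell gene Rbp4 had ratios of 2.89 and 3.39 in beta cells and of 3.73 and 2.99 in endothelial cells. Slc38a5, a transporter of glutamine that marks alpha cells of the homozygous library, had 44.2 CPM in homozygous and 2.25 CPM in heterozygous beta cells (ratio 19.7, 13.98 to 28.3), and 28.3 and 1.16 CPM in endothelial cells. The Gcg share of 8.59% applied to the library level of Slc38a5 gives 44.1 CPM. In heterozygous beta cells the same step gives 1.60 of the 2.25 CPM. With the library profile so subtracted the ratio of Slc38a5 became 0.0205. That ratio compares remainders near 0 and is no measure of a lower level. The acinar gene Ctrb1, which encodes a chymotrypsinogen, had 86.0 CPM in homozygous beta cells and 1 UMI (0.0576 CPM) in heterozygous ones, and 244 and 1.16 CPM in endothelial cells, so its level in beta cells lay below the background. The 10 acinar markers summed to 233 and 2.25 CPM in beta cells and to 611 and 4.66 CPM in endothelial cells, and 5 of them were at 0 in heterozygous beta cells. Ptgdr, a PP cell marker, was at 0 in beta cells of both libraries. The summed levels of 8 alpha markers were 25464 and 7560 CPM in beta cells, those of 6 delta markers 4252 and 764 CPM and those of 5 PP markers 62262 and 1511 CPM.

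Across all genes, 1196 had 50 CPM or more in beta cells of 1 genotype, and their median log2 ratio was -0.04. Of these 30 (2.51%) were at least 2-fold higher and 39 (3.26%) at least 2-fold lower in homozygous beta cells, or 5.77% either way. Among the 173 genes whose higher beta cell level was at least 3 times the endothelial level of the same library, 12 (6.94%) were at least 2-fold higher and 17 (9.83%) at least 2-fold lower. The genes named for their ratio alone come from these 173 and had an interval beyond 1.5-fold.

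**Figure D3:**
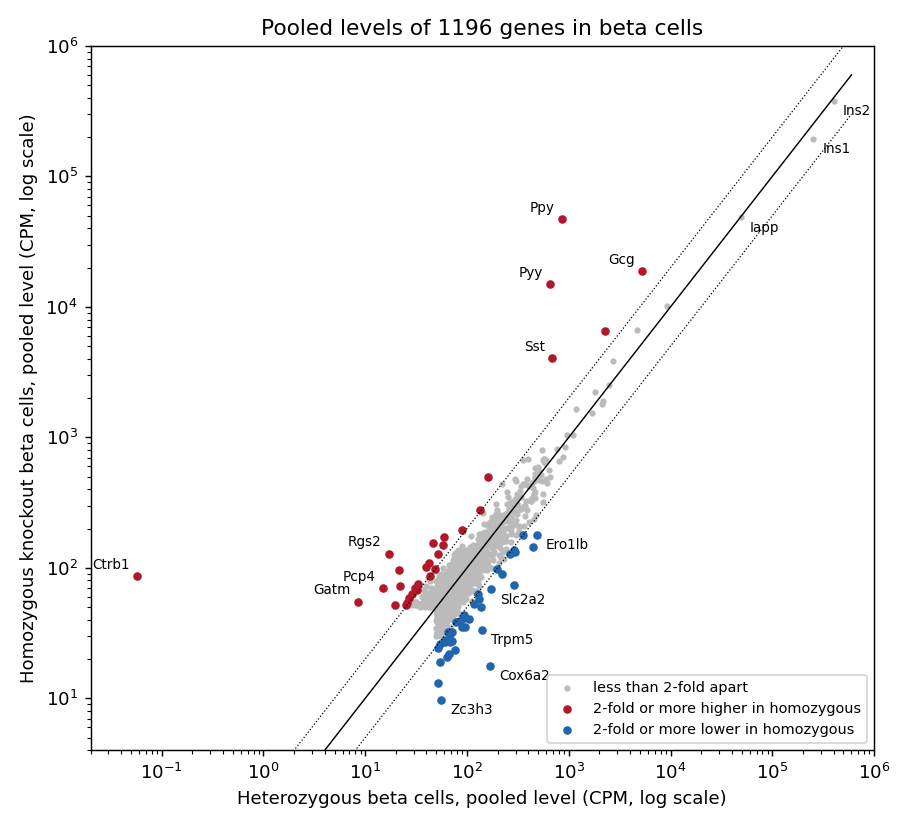
Pooled level of each of 1196 genes in homozygous knockout beta cells (vertical axis) against heterozygous beta cells (horizontal axis), both in CPM on log scales; the solid line marks equal levels and the dotted lines 2-fold. The 30 genes at least 2-fold higher include the hormones Ppy, Pyy, Gcg and Sst and the acinar gene Ctrb1, and the 39 at least 2-fold lower include Slc2a2, Trpm5 and Cox6a2.

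Genes of glucose uptake and insulin release held 4 members at least 2-fold lower and 0 at least 2-fold higher among 12 measured of 20. Their median log2 ratio was -0.05 (0.02 with means over cells). Of all 1196 genes 3.26% were at least 2-fold lower, and of the 173 genes at least 3 times over endothelial cells 9.83%. Slc2a2, the main glucose transporter of mouse beta cells, had 68.5 CPM in homozygous and 171 CPM in heterozygous beta cells, a ratio of 0.401 (0.360 to 0.446). Trpm5, a calcium-activated cation channel of the beta cell membrane, had 33.5 and 139 CPM (0.240, 0.206 to 0.279). Abcc8, the sulfonylurea receptor subunit of the ATP-sensitive potassium channel, had 98.1 and 197 CPM (0.498, 0.454 to 0.545). Its ratio was 0.534 at equal depth and 0.536 in the largest clusters, short of 2-fold. Abcc8 was also lower in homozygous alpha cells (0.649, 0.601 to 0.701) and delta cells (0.546, 0.469 to 0.639). Sytl4, which encodes the granule protein granuphilin, had 31.2 and 68.1 CPM (0.458, 0.388 to 0.537). These 4 were lower in homozygous beta cells by more than their counting intervals, with 188 UMIs behind Trpm5 and 175 behind Sytl4 in homozygous cells. In endothelial cells Slc2a2 had 1.77 and 10.48 CPM and Trpm5 0 and 5.82 CPM. Kcnj11, the pore of that channel, had 16.6 and 28.6 CPM (0.580), below the level limit. G6pc2 differed little, with 494 and 470 CPM (1.05, 1.005 to 1.096). Rab27a, a GTPase of granules, had 69.4 and 46.3 CPM (1.501). Tmem27, which encodes collectrin, had 439 and 222 CPM (1.97), with 115 and 36.1 CPM in endothelial cells. The ratio of Tmem27 was 1.69 (1.64 to 1.74) in alpha and 1.08 (0.986 to 1.19) in delta cells.

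At equal depth the shares of cells with a UMI of these genes were also lower in homozygous beta cells. After each cell was thinned to 5000 UMIs, which left out 37 homozygous and 6 heterozygous beta cells, Slc2a2 had a UMI in 26.9% (22.7 to 31.4) of homozygous and 55.4% (51.6 to 59.2) of heterozygous beta cells. Trpm5 was found in 12.7% (9.71 to 16.3) and 46.2% (42.4 to 50.02), and Ucn3 in 58.5% (53.6 to 63.2) and 82.5% (79.4 to 85.2). Unthinned shares were 45.8% and 93.9% for Slc2a2, 23.6% and 89.3% for Trpm5 and 75.5% and 97.8% for Ucn3. Most endothelial cells had fewer than 5000 UMIs, so they were compared at 2000. At that depth Slc2a2 was found in 11.9% of homozygous and 28.3% of heterozygous beta cells, against 0 of 113 homozygous endothelial cells, which allows up to 2.65%, and 1.81% of 166 heterozygous ones. Ucn3 was found in 33.0% and 51.0% of beta cells, against 0 of 113 and 4.82% of endothelial cells.

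Of the 5 beta cell markers 4 were measured at 50 CPM or more, none passed 2-fold, and all 4 stood below 1. Ucn3 had the lowest ratio, 0.543 (0.511 to 0.577), and in the largest cluster of each library its ratio was 0.601. Pdx1, below the level limit, had a ratio of 0.686 (0.511 to 0.908).

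No transcription factor of beta cells passed 2-fold. Of 18, 7 were measured at 50 CPM or more, and 5 of these stood below 1 and 2 above, with a median log2 ratio of -0.19 (0.01 with means over cells). Nkx6-1, which keeps beta cells from taking other islet fates, had 56.1 CPM in homozygous and 89.1 CPM in heterozygous beta cells (0.629, 0.556 to 0.711). Isl1, a factor of all islet endocrine cells, had 99.3 and 68.3 CPM (1.46, 1.31 to 1.61). Neurod1 had 109.7 and 108.8 CPM (1.01, 0.919 to 1.105), and Pax6 156 and 183 CPM (0.853). Mafa and Mnx1 had under 0.3 CPM in both libraries, too few UMIs to compare. Genes of immature or dedifferentiated beta cells were mostly at low levels: of 16, 2 reached 50 CPM, Cd81 and Rbp4. Cd81, a surface protein, had 149.5 and 58.2 CPM (2.57, 2.34 to 2.82) and was much more abundant in endothelial cells (2861 and 3194 CPM). Aldh1a3 had 1.25 CPM in homozygous and 0.230 CPM in heterozygous beta cells, and Neurog3 1.60 and 1.15 CPM.

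Prohormone processing enzymes and granins stood on both sides of 1. Of 15, 14 were measured, 0 passed 2-fold in either direction, 8 stood above 1 and 6 below, and the median log2 ratio was 0.02. Pcsk1, the convertase that begins proinsulin cleavage, had 65.9 CPM in homozygous and 116 CPM in heterozygous beta cells (0.567, 0.506 to 0.634), while Pcsk2 had 1912 and 2163 CPM (0.884) and the carboxypeptidase gene Cpe 1035 and 1109 CPM (0.933). Chgb had 677 and 354 CPM (1.91, 1.83 to 1.99), Scg3, a granin that binds chromogranin A, 683 and 395 CPM (1.73), and Chga 6658 and 4694 CPM (1.42). Without the cells with more than 20% other hormones the ratio of Chgb was 1.39.

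Receptors for islet signals included Prlr, through which prolactin and placental lactogen act, with 101 CPM in homozygous and 175 CPM in heterozygous beta cells (0.575, 0.524 to 0.629). The incretin receptor gene Gipr had 27.4 and 46.5 CPM (0.590, 0.493 to 0.702) and the somatostatin receptor gene Sstr3 82.96 and 41.8 CPM (1.98, 1.76 to 2.23). Glp1r had 0.890 and 1.27 CPM, too few UMIs to compare. Of 16 receptors 3 reached 50 CPM, and 0 passed 2-fold.

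After Ppy, the named genes with the highest ratios were Rgs2, Gatm, Pcp4 and Mdm1. Rgs2 (chromosome 1, 143999338 to 144004149), a regulator that shortens Gq-coupled receptor signals, had 128 CPM in homozygous and 17.1 CPM in heterozygous beta cells, a ratio of 7.53 (6.57 to 8.65). In endothelial cells it had 30.0 and 23.3 CPM, and in alpha cells 52.1 and 56.0 CPM. Thinned to 5000 UMIs, 40.8% (36.1 to 45.7) of homozygous and 6.87% (5.09 to 9.03) of heterozygous beta cells had a Rgs2 UMI; unthinned, 64.4% and 28.1%. At 2000 UMIs the shares were 19.5% and 3.19% in beta cells and 7.96% and 4.22% in endothelial cells. Gatm, which makes the creatine precursor guanidinoacetate, had 55.2 and 8.47 CPM (6.52, 5.34 to 7.99), and 8.83 and 8.15 CPM in endothelial cells. Alpha cells had a ratio close to it, with 74.65 CPM in homozygous and 14.16 CPM in heterozygous cells (5.27, 3.93 to 7.23), and delta cells had a Gatm ratio of 2.20 (1.43 to 3.56). Pcp4, a small calmodulin-binding peptide, had 69.8 and 14.8 CPM (4.71, 4.02 to 5.54). Mdm1, which encodes a microtubule-binding protein, had 95.6 and 21.6 CPM (4.43, 3.87 to 5.06). Its ratio was 2.10 in alpha and 1.70 in delta cells. Sez6l, a substrate of the protease BACE2 in beta cells, had 172 and 59.1 CPM (2.90), and C2cd4b, of a locus tied to type 2 diabetes in humans, 109 and 42.5 CPM (2.57). C2cd4b also had ratios of 2.25 in alpha and 2.30 in delta cells. The remaining higher named genes were Hist1h4h (2.167), the glycolipid enzyme gene B4galt6 (2.07) and the ribonuclease gene Ang (2.02), which shares its locus with Rnase4. The ratio of Hist1h4h was 7.83 in alpha and 0.953 in delta cells. Without the cells with more than 20% other hormones the ratios of Hist1h4h and Ang were 1.925 and 1.95, short of 2-fold. In endothelial cells B4galt6 and Ang had ratios of 2.73 and 3.25, on 9 and 15 homozygous UMIs.

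**Figure D4:**
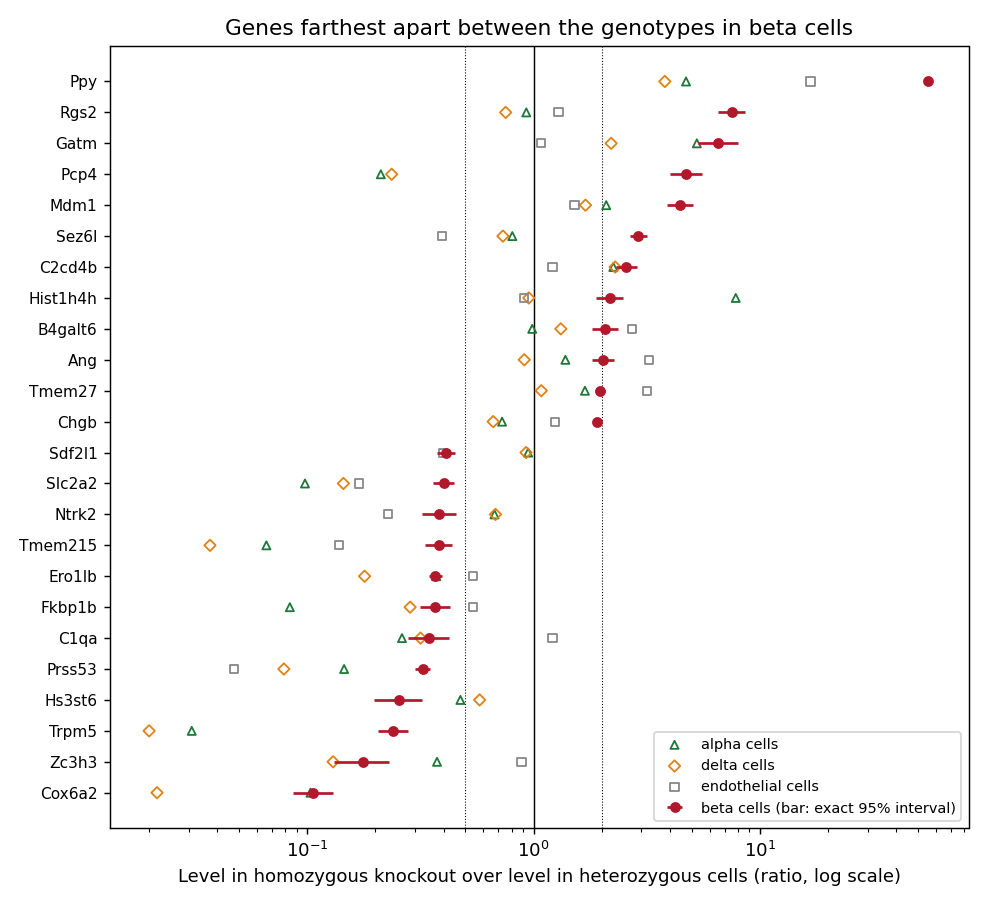
Ratio of the homozygous over the heterozygous level (log scale) of the 24 genes named for their ratio in beta cells, for beta cells with their exact 95% interval and for alpha, delta and endothelial cells; points with 0 in either library are not drawn. Pcp4 stands at 4.71 in beta cells and at 0.211 and 0.236 in alpha and delta cells. Rgs2, Sez6l and Chgb are above 1 in beta cells and below 1 in alpha and delta cells. The alpha cell intervals of Rgs2 (0.794 to 1.092) and Sez6l (0.544 to 1.232) include 1. Hist1h4h, C2cd4b and Mdm1 are also above 1 in alpha cells (7.83, 2.25 and 2.10).

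Lower named genes were led by Cox6a2, the heart and muscle form of a cytochrome c oxidase subunit. It had 17.8 CPM (100 UMIs) in homozygous and 168 CPM (2912 UMIs) in heterozygous beta cells, a ratio of 0.106 (0.0861 to 0.130), and of 0.0660 with every cell thinned to 5000 UMIs. At 5000 UMIs 4.72% (2.91 to 7.19) of homozygous and 51.5% (47.6 to 55.3) of heterozygous beta cells had a Cox6a2 UMI; unthinned, 11.5% and 85.5%. Endothelial cells at 2000 UMIs had 0 of 113 and 1.20%. Zc3h3, a zinc finger protein of mRNA polyadenylation and export, had 9.79 and 55.8 CPM (0.175, 0.131 to 0.230). Prss53 had 143.5 and 443.5 CPM (0.324, 0.301 to 0.348). Hs3st6, a heparan sulfate sulfotransferase gene, had 13.2 and 51.8 CPM (0.254). Fkbp1b, which binds calcium release channels, had 35.1 and 95.2 CPM (0.368), Tmem215 40.2 and 105.7 CPM (0.381) and the neurotrophin receptor gene Ntrk2 27.4 and 71.5 CPM (0.383). Whether reads were counted by strand is not stated in the labels, and Cox6a2 overlaps Itgad and Prss53 overlaps Zfp646.

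Folding genes of the endoplasmic reticulum included 2 of these lower genes. Ero1lb, the oxidase that makes disulfide bonds in proinsulin, had 180 CPM in homozygous and 488 CPM in heterozygous beta cells (0.369, 0.345 to 0.393), and Sdf2l1, an endoplasmic reticulum protein induced by unfolded proteins, had 89.7 and 218 CPM (0.411, 0.374 to 0.451). In endothelial cells Sdf2l1 had 28.3 and 71.0 CPM, a ratio of 0.398, close to that in beta cells, and in alpha cells it had 76.6 and 81.0 CPM. Of 22 genes of this group, 17 were measured, 2 were at least 2-fold lower, 0 at least 2-fold higher, and the median log2 ratio was -0.29. Of all 1196 genes 3.26% were at least 2-fold lower, and of the 173 genes at least 3 times over endothelial cells 9.83%. The main chaperone gene Hspa5 had 309 and 245 CPM (1.26), Pdia6 193 and 324 CPM (0.594), and Wfs1, mutated in Wolfram syndrome in humans, 59.8 and 39.9 CPM (1.501).

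**Figure D5:**
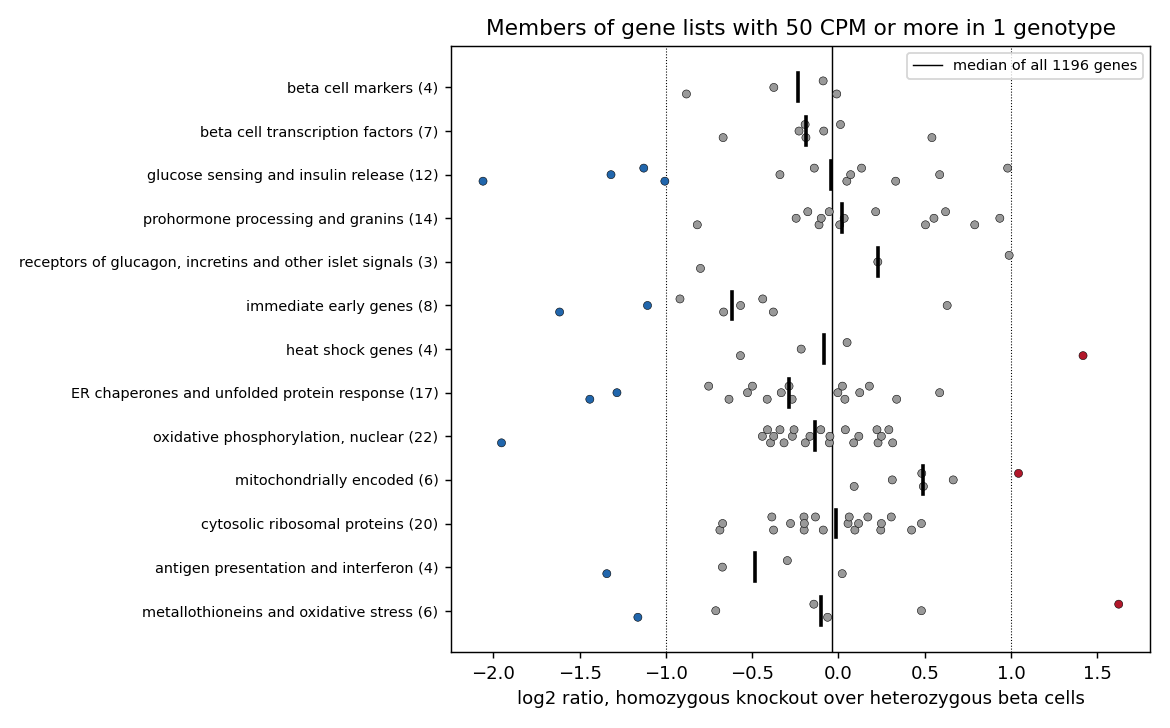
log2 ratio of homozygous over heterozygous beta cells for each member with 50 CPM or more of 13 gene lists; thick bars are medians, the solid line is the median of all 1196 genes, and dotted lines mark 2-fold. In glucose sensing and insulin release 4 of 12 members lie beyond the lower line, against 3.26% of all 1196 genes, and no transcription factor or granin lies beyond either.

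Mitochondrially encoded genes had 6 of 13 found members measured, all above 1, with a median log2 ratio of 0.49. COX1, subunit 1 of cytochrome c oxidase, had 277 and 134.5 CPM (2.06, 1.93 to 2.20), against 238.5 and 139 CPM in endothelial cells. The mitochondrial share per cell counts mitochondrial UMIs too, so its difference restates these ratios and is not a separate observation. In endothelial and alpha cells the list's median log2 ratio was 0.11 and -0.00036. The cause of these differences was not tested.

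Immediate early genes, which respond to stimuli and to tissue handling, had 2 of 8 measured members at least 2-fold lower and 0 higher. Their median log2 ratio was -0.62. Of all 1196 genes 3.26% were at least 2-fold lower and 2.51% at least 2-fold higher. Dusp1, a phosphatase of MAP kinases, had 20.8 CPM in homozygous and 63.8 CPM in heterozygous beta cells (0.326), and Junb, an AP-1 subunit, 43.3 and 93.1 CPM (0.465, and 0.525 at equal depth, short of 2-fold). In endothelial cells these genes were far more abundant, with 1009 and 1553 CPM for Dusp1 and 1576 and 1794 CPM for Junb. The ratios of both were lower in the other endocrine types than in beta cells: Dusp1 stood at 0.0892 (0.0790 to 0.101) in alpha and 0.206 (0.144 to 0.299) in delta cells, and Junb at 0.0887 and 0.204. The list's median log2 ratio was -3.28 in alpha cells. Fos had 204 and 324 CPM in beta cells (0.631) and 1353 and 1387 CPM in endothelial cells. Of 4 measured heat shock genes, Hsph1 was at least 2-fold higher, with 51.8 and 19.4 CPM (2.67), and 26.5 and 6.99 CPM in endothelial cells.

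Among the remaining lists, 20 measured ribosomal protein genes had 0 members past 2-fold and a median log2 ratio of -0.02, and the 2 measured amino acid transporters, Slc7a2 and Slc3a2, had ratios of 0.623 and 0.647. Of 24 cell cycle genes 2 were measured, the cyclin genes Ccnd1 (1.61) and Ccnd2 (1.08), and Mki67 had 0 UMIs in homozygous and 0.230 CPM in heterozygous beta cells. Txnip, a glucose-responsive inhibitor of thioredoxin, had 32.1 and 71.7 CPM (0.447, and 0.514 at equal depth), and the antioxidant gene Gpx3 501 and 163 CPM (3.08), with 422 and 140 CPM in endothelial cells. Ndn, an imprinted gene, had 51.6 and 25.2 CPM (2.05, and 1.83 without the cells with more than 20% other hormones). Macrophage markers were low, with 64.1 and 138 CPM summed over 7 genes; C1qa had 18.9 and 54.8 CPM (0.344) and Cd74 27.1 and 68.6 CPM (0.395, and 0.531 at equal depth), against 7.07 and 5.82 CPM and 74.2 and 76.9 CPM in endothelial cells.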

How the data were processed

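The deposited islet tables hold a normalized signal per gene and cell; that it is each cell's UMIs over its total times a constant, 9936 in both tables, was read from the values, since no source states it. Per the file headers the authors also gave each cell's total UMI count. The submitters' processing notes name CASAVA 1.8, bcl2fastq 2.17, GSNAP 2013-10-10 and GRCm38, with no role for each. Undoing this scaling returned UMI counts, whole within 0.01 for 100.0% of values, and gave 34101553 UMIs in the homozygous and 22174810 in the heterozygous library over 36529 gene rows. Cell types and clusters are the authors' deposited annotation. No cell filter was added, and doublets called by Scrublet (scanpy 1.11.5, expected rate 0.06) were kept, with an alternative without them. The tumor table was not analysed here.

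UMIs were summed over the cells of a type. Ratios have exact conditional binomial intervals (95%), levels exact Poisson ones and shares Clopper-Pearson ones (scipy 1.17.1). For a gene with 0 UMIs the limit is 3 counts. No test was run, since each genotype had 1 library. On simulated counts for 1058 genes of the beta cell comparison, 96.4% of intervals held the true ratio, and 0 unchanged genes passed 2-fold. The simulated counts came from the counting model that the intervals assume, with no spread between cells or libraries. They check the calculation only and lend no weight to any ratio here.

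Members and lists (32, with 10 list symbols not found in the tables) were chosen with earlier results of these data known. Named genes had 50 CPM or more in 1 genotype, no predicted symbol, a higher beta level 3 times or more the endothelial level and an interval beyond 1.5-fold: the 12 each way with the bound farthest from 1. To these were added the 5 markers, Gcgr, Slc38a5 and up to 4 members past 2-fold per list, 49 genes in all; other list members describe their list, and some results are not reported here. The limits of the Ppy classes (100000 and 30000 CPM) and the comparison with single endothelial cells were set after seeing the data. Positions of 31049 (85.0%) gene rows came from RefSeq (GRCm38.p6) by Entrez identifier, and the start regions from RefSeq. Of the 49 named genes 21 overlap another RefSeq gene. Alternatives were totals without hormones, means over cells, other level limits, 1.5-fold, leaving out doublets, mixed-hormone cells or small clusters, thinning and subtracting the library profile.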

Additional observations from a re-analysis of the deposited data

Results flagged for a closer look

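Pcp4 differed in opposite directions between cell types. Its level in homozygous over heterozygous beta cells was 4.71 (4.02 to 5.54), against 0.211 (0.151 to 0.298) in alpha cells and 0.236 (0.183 to 0.305) in delta cells of the same libraries. The levels were 69.8 and 14.8 CPM in beta cells, 3.97 and 18.8 CPM in alpha cells and 51.6 and 218.5 CPM in delta cells, homozygous before heterozygous in each. PP cells of the homozygous library had 2.18 CPM, and endothelial cells 1.77 and 0 CPM. In single beta cells thinned to 5000 UMIs, 25.7% (21.6 to 30.2) of homozygous and 6.58% (4.84 to 8.70) of heterozygous cells had a Pcp4 UMI. Each value rests on 1 library, and the difference between cell types was not tested.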

How the results depend on the processing

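No paired analysis was possible because each genotype had 1 library, and for the same reason no library could be left out. The counts of genes at least 2-fold higher and lower (30 and 39 of 1196) changed with the level limit. They were 86 and 88 at 20 CPM and 1822 and 1124 with no limit, where genes with few UMIs enter. Among the 173 genes at least 3 times over endothelial cells they were 12 and 17. With hormones left out of the totals they were 106 and 137, as the 50 CPM limit then admits more genes. At 1.5-fold, a lower fold limit, they were 78 and 121. Most of these settings cover different numbers of genes, so the counts are not shares and cannot be set against each other. With means over cells 47 were higher. The median log2 ratio lay between -0.09 and 0.06 under all alternatives. Leaving out doublets or cells with over 20% other hormones, thinning to 5000 UMIs, keeping the largest cluster of each library and subtracting the library profile kept both counts within 1.5 times. Subtracting the library profile was added after seeing the data, as was thinning to 2000 UMIs. The subtraction moved Pyy to 36.1, Rbp4 to 1.76 and Gpx3 to 1.86. For Slc38a5 it gave 0.0205, a ratio of remainders near 0. Leaving out cells with over 20% other hormones moved Ppy to 24.2 and Pyy to 14.4, a direction fixed by choosing cells on these hormones. Thinning to 5000 UMIs moved Cox6a2 to 0.0660, Slc38a5 to 30.65 and Ctrb1 to 318, and the largest clusters moved Ctrb1 to 989. Of 41 named genes past 2-fold, 37 stayed past it with thinning, 39 in the largest clusters and 38 without mixed-hormone cells. With the library profile subtracted 33 of 39 stayed past it, and the ratio of Iapp (0.993) became 1.04. The cause of the other moves was not tested. Genes at about 1 CPM or less, such as Glp1r, Mafa and Mnx1, had too few UMIs to compare. The reason for their low levels was not tested.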

Other observations

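Neuropeptide Y and neuronatin transcripts were lower in homozygous beta cells, at levels under the 50 CPM limit. Npy had 7.66 CPM in homozygous and 35.3 CPM in heterozygous beta cells (ratio 0.217, 0.156 to 0.296), and Nnat, an imprinted gene of the endoplasmic reticulum of beta cells, 6.59 and 27.5 CPM (0.239, 0.166 to 0.335). Endothelial cells had 1.77 and 2.33 CPM of Npy and 0 and 5.82 CPM of Nnat. The imprinted growth factor gene Igf2 had 44.7 and 76.1 CPM in beta cells (0.587), and Mest 5.34 and 0.518 CPM (10.3, 4.77 to 24.7), with 12.4 and 12.8 CPM in endothelial cells. These genes were chosen after their values were seen.

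C1qa stood apart from its partner genes. The complement genes C1qb and C1qc had 7.48 and 5.36 CPM, and 4.10 and 4.43 CPM, in homozygous and heterozygous beta cells, with ratios of 1.40 (0.946 to 2.03) and 0.923 (0.553 to 1.49), while that of C1qa was 0.344. Heterozygous alpha and delta cells also had C1qa, at 74.5 and 138 CPM.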
